A study of Mus musculus with 3 samples.

Results

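The Bmp receptors and Bmp antagonists are 9 genes that set how a cell reads Bmp signals, and their expression was compared in mouse embryoid bodies with no working copy of Hopx and with 1. The members are the 4 receptors Bmpr1a, Bmpr1b, Acvr1 and Bmpr2 and the 5 antagonists Nog, Chrd, Grem1, Bmper and Bambi. They were chosen by symbol, through the accession that each non-control probe of the array carries, and every member had at least 1 probe. Of the 9 members, 8 passed the filter on dim probes and stood among the 19803 genes tested, and Bambi did not. The samples were 3 biological replicates of day 8 cardiac differentiation, each a 2-colour Agilent array that carried a Hopx-/- culture (null) and a Hopx+/- culture (heterozygous). Both genotypes were stem cells derived from blastocysts on feeder cells with a MEK1 inhibitor that was later withdrawn. Both were then grown as hanging drops and in suspension, and plated in a medium with VEGF, bFGF, FGF10, ascorbic acid and Glutamax. No wild-type culture was among the samples, the control being heterozygous, and the labels do not state how many stem cell lines stood behind a genotype. P-values therefore measure the spread between these samples, and genotype and line cannot be told apart.

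Bmps are secreted dimers that bring type I and type II serine/threonine kinase receptors together at the cell surface. The type II kinase phosphorylates the type I kinase, which in turn phosphorylates Smad1, Smad5 and Smad9, and these enter the nucleus with Smad4. Secreted antagonists bind the ligands and keep them from the receptors. In the early embryo Bmp signals promote mesoderm and blood, and they induce heart precursors at the flank of the embryo, while their antagonists allow neural tissue to form.

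Signed values are log2 ratios of null over heterozygous, and replicate 3 was turned because the labels do not settle its direction. The labels give the null culture Cy5 on every array, yet over the probes kept, the correlation of replicate 3 was -0.903 to replicate 1 and -0.902 to replicate 2, against 0.939 between the other two. These are correlations across probes, which share their arrays. In the authors' deposited table replicate 3 runs against its scanner ratios (r = -0.632, against 0.72 and 0.686 for replicates 1 and 2), and the direction of that table was followed. Hopx itself stood at -2.98, -2.97 and -3.45 on the 3 arrays, lower in null on each. Between 61.9% and 72.9% of the 43020 non-control features were well above background in a channel, a flag set by the scanner software, and precision is limited by there being 3 arrays.

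In null cultures 3 of the 4 receptors fell, and of the 5 antagonists 2 fell, 2 did not pass the test and 1 was not measured. Bmpr2, the type II receptor, fell most, followed by Acvr1, Nog, Bmpr1a and Bmper. The remaining receptor, Bmpr1b, was called higher, but it passed the filter only through the null channel, where it was high, so this call is no support for a rise. It was not tested where both channels had to be above background. The test was limma's moderated test of each ratio against 0, adjusted by Benjamini-Hochberg over all probes kept, with a call at adjusted p under 0.05. By this rule 60.3% of all genes tested were called, 30.1% lower and 30.2% higher in null. A call is thus common on these arrays, and the 5 lower members of 8 measured are to be read against 30.1%. Only Bmpr2 was called with a change of at least 2-fold, which 10.9% of all genes were. The median over the 8 was -0.38, against 0 over all genes tested. Without replicate 3, the array of doubtful direction, the same numbers were called, 3 receptors and 2 antagonists lower and 1 receptor higher. With arrays centred on their median in place of loess normalization, 2 receptors and 1 antagonist were called lower. Bmpr1a and Bmper then lost their calls (-0.04 and -0.03, limma adjusted p = 0.801 and 0.82).

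**Figure D1:**
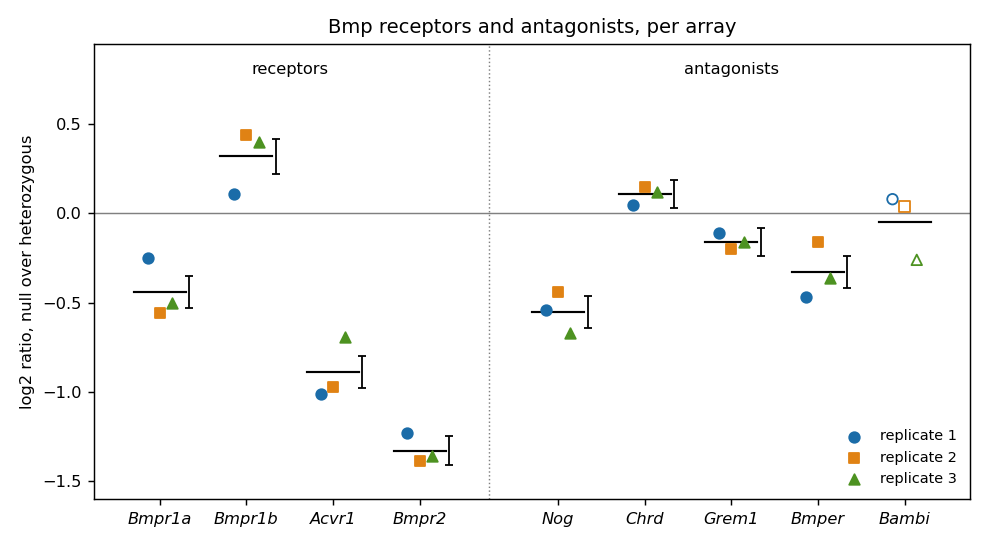
Log2 ratio of null over heterozygous on each array (points, 1 symbol per replicate) for the 4 receptors and 5 antagonists, with the mean (line) and the moderated SE (bar). Bambi, in open symbols, was not tested. Bmpr2 lies lowest, near -1.33, and Bmpr1b and Chrd lie above 0 on all 3 arrays.

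Bmpr2 encodes the type II receptor that binds Bmp ligands and switches on the type I kinases. Its normalized log2 intensity was 9.18, 9.19 and 9.27 in the heterozygous channels and 7.95, 7.8 and 7.91 in the null channels. The 2 genotypes were more than 1 log2 unit apart on every array. The ratios were -1.23, -1.39 and -1.36, with a mean of -1.33 (moderated SE 0.08, n = 3, limma adjusted p = 4.02e-06), so that the signal was 2.51-fold higher in heterozygous cultures. Of all genes tested, 3.13% had a ratio as low or lower.

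Acvr1, also known as Alk2, is a type I receptor that serves Bmp ligands and is needed in the mouse for gastrulation. Its brighter probe read 12.51, 12.58 and 12.4 in heterozygous and 11.5, 11.61 and 11.71 in null channels. The ratios of -1.01, -0.97 and -0.69 gave a mean of -0.89 (moderated SE 0.09, limma adjusted p = 6.86e-05), a 1.86-fold higher signal in heterozygous cultures. Before normalization its net intensity was lower in null too, at 3250, 3630 and 4620 against 4000, 5210 and 4780. After loess the other Acvr1 probe was lower in null on every array, at -0.59, -0.76 and -0.4 (mean -0.59, limma adjusted p = 0.000805). Its net intensity, however, was higher in null on replicates 1 and 3, at 657 against 652 and 819 against 688. On replicate 2 it was lower, at 549 against 780. The direction of this probe on replicates 1 and 3 thus comes from the normalization. After loess the 2 probes gave the same direction and differed in size.

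Bmpr1a, or Alk3, is the type I receptor for Bmp2 and Bmp4 that early mesoderm needs. Its log2 intensities were 11, 11.77 and 11.81 in heterozygous and 10.75, 11.21 and 11.31 in null channels. Replicate 1 was the dimmest array in both genotypes, so the groups overlapped across arrays while each array alone had null lower after loess. Before normalization the net intensity was higher in null on replicates 1 and 3, at 1810 against 1340 and 3540 against 3170, and lower on replicate 2, at 2680 against 2960. The direction on those 2 arrays thus comes from the normalization, as the median-centred ratios of 0.19, -0.32 and 0.01 show. After loess the ratios were -0.25, -0.56 and -0.5 (mean -0.44, moderated SE 0.09, limma adjusted p = 0.00344). Its call was lost when ratios were centred on the median without loess (-0.04, adjusted p = 0.801 by limma).

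Bmpr1b, or Alk6, a type I receptor known for its part in cartilage, went the other way. In heterozygous channels both of its probes were not well above background on any array, and in null channels they were so on all 3. It passed the filter only through the channel where it was high, and so its heterozygous level is known only as a ceiling. Its used probe read 6.36, 6.51 and 6.72 in null and 6.25, 6.07 and 6.32 in heterozygous channels, with ratios of 0.11, 0.44 and 0.4. That probe was kept only through its null channel, so the limma adjusted p of its ratio, 0.0186, is no support for a rise. With the measured heterozygous mean as that ceiling, the null mean was 1.25-fold higher under the reported processing. For the other probe, with ratios of 0.4, 0.23 and 0.44, it was 1.28-fold higher. These folds equal the fitted ratios and are no minimum over arrays or settings: the 95% intervals of the ratios reach down to 1.07-fold and 1.12-fold. They are also open to dye bias, with the null culture in Cy5 on 2 arrays and, replicate 3 being turned, in Cy3 on 1. With a dye term in the fit, which rests on that 1 array for its dye order, the ratio of the used probe was 0.34. The size is not settled: processed signals of the scanner software gave 2.06, a value of 0.01 came from the authors' deposited table, and without replicate 2 the call was lost (0.26, limma adjusted p = 0.126).

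**Figure D2:**
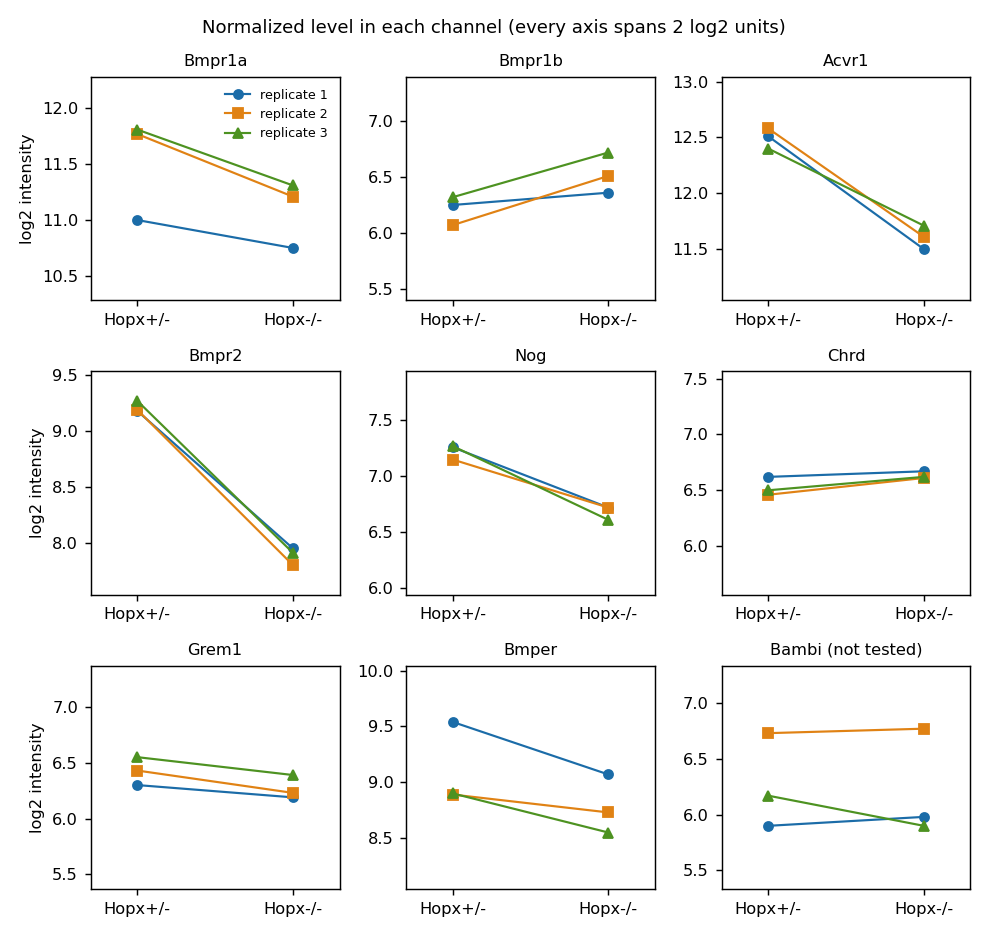
Normalized log2 intensity of each member in the heterozygous and null channel of each array, joined by array, on axes that each span 2 log2 units. The lines of Bmpr2, Acvr1, Bmpr1a, Nog and Bmper fall on all 3 arrays, whereas those of Chrd and Grem1 are nearly flat.

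The promoters of the 4 receptors are shown because the 3 receptors called lower differ there in CpG content from Bmpr1b. This grouping was drawn from the calls, Bmpr1b stands alone on its side, and its call is no support for a rise. Each sequence is the 250 bases before a transcription start in RefSeq (GRCm38.p6), read on the strand of the gene. Capitals mark 2 motifs to which Smads are known to bind, GGCGCC and CAGAC, the latter also in its complement GTCTG. The motif GGCGCC reads the same on both strands, and the motifs can share an end base. Bmpr1a lies at chr14:34502547-34502796 (minus), Acvr1 at chr2:58566829-58567078 (minus), Bmpr2 at chr1:59764029-59764278 (plus) and the most upstream Bmpr1b window at chr3:141982265-141982514 (minus).
Bmpr1a: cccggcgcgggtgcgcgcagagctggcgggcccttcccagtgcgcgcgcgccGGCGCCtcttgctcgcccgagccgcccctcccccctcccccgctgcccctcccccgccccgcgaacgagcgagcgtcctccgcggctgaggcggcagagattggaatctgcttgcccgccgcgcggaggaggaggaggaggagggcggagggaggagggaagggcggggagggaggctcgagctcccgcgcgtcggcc
Acvr1: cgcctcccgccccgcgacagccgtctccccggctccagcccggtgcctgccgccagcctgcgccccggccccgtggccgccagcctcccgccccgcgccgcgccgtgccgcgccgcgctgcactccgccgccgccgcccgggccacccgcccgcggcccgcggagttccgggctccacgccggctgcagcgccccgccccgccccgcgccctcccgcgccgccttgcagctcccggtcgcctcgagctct
Bmpr2: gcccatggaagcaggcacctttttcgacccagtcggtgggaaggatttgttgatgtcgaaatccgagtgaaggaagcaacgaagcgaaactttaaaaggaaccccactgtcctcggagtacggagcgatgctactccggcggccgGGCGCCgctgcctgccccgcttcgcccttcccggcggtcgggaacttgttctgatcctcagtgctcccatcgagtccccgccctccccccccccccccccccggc
Bmpr1b: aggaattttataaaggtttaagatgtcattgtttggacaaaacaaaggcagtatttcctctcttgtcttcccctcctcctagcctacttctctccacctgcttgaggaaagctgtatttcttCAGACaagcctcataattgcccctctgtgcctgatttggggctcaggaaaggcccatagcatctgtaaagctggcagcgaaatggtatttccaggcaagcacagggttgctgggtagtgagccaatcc

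Counted over the whole window of 300 bases, which runs 50 past the start, the G and C content was 79.3% for Bmpr1a, 83.7% for Acvr1 and 59.3% for Bmpr2. These windows held 48, 51 and 23 CpG dinucleotides. The 3 Bmpr1b windows held 5, 6 and 6, with a G and C content of 48.3% to 55.7%, near the medians over all 32851 windows of 7 CpG and 52.7%. GGCGCC occurred once each in the windows of Bmpr1a and Bmpr2 and not in those of Acvr1 or Bmpr1b, against 11.9% of all windows. CAGAC or GTCTG was found in 2 of the 3 Bmpr1b windows and in none of the other receptors, against 49.6% of all windows. Among the antagonists with a window, Chrd, Grem1 and Bmper had 34, 28 and 31 CpG dinucleotides. Chrd and Grem1 each held GGCGCC and also CAGAC or GTCTG, and Bmper held neither motif. No test was made of these counts. Nog and Bambi had no window in the table. A match describes letters in a window and is not a bound site.

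Nog encodes noggin, which binds Bmp dimers tightly and keeps them from the receptors. Its probe was dim, with net intensities above local background of 45.5, 45 and 61.5 in null and 68, 69.5 and 88.5 in heterozygous channels, where local backgrounds of the members ran from 28 to 51. Null was lower on every array, with ratios of -0.54, -0.44 and -0.67 (mean -0.55, moderated SE 0.09, limma adjusted p = 0.000692), a 1.46-fold higher signal in heterozygous cultures. The size moved with how background was treated, to -0.75 with a normexp offset of 16 in place of 50 and -1.28 with the processed signals. An offset added to dim signals draws their ratios toward 0.

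Bmper encodes a secreted protein related to crossveinless 2 that binds Bmps and can restrain or promote them. Its ratios were -0.47, -0.16 and -0.36 (mean -0.33, moderated SE 0.09, limma adjusted p = 0.0138). Before normalization the net intensity was the higher in null on every array, at 497, 406 and 469 against 460, 372 and 386. The sign of its ratio thus comes from the normalization within arrays. Centred on the median without loess it stood at -0.03 (limma adjusted p = 0.82), and its call was also lost without replicate 1 (-0.26, adjusted p = 0.106 by limma).

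Chrd, chordin, a Bmp-binding antagonist of the organizer, and Grem1, gremlin, an antagonist of Bmp2 and Bmp4 in limb and kidney, did not pass. Chrd read 0.05, 0.15 and 0.12, above 0 on all 3 arrays (mean 0.11, 95% interval -0.08 to 0.3, limma adjusted p = 0.278). Grem1 read -0.11, -0.2 and -0.16, below 0 on all 3 (mean -0.16, 95% interval -0.34 to 0.03, limma adjusted p = 0.131). Both were at the edge of detection. Before normalization the net intensity of Chrd was higher in null on every array, at 42, 37 and 55.5 against 26, 19 and 27. That of Grem1 was 13.5, 13.5 and 36 in null and 14, 18 and 30.5 in heterozygous channels. On probes of like brightness that were spotted at least 10 times (145 probes under a mean log2 intensity of 7), single spots of an array had a median SD of 0.106, about the size of these ratios, and each member probe was spotted once. With a normexp offset of 16 Grem1 passed (-0.26, limma adjusted p = 0.0414). The intervals allow a change of Chrd up to 1.23-fold higher and of Grem1 down to 0.789 of the heterozygous signal, on a scale that the offset compresses.

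Bambi differs from the other antagonists in being a membrane protein, a receptor-like decoy without a kinase. It was well above background in 1 of 3 null channels and 1 of 3 heterozygous channels, and had no test. Its net intensities were 3, 49 and -1 in null and 0, 36 and 10 in heterozygous channels. Replicate 2 alone held signal in both genotypes. No fold is given.

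The receptors lay lower than the antagonists on average, with a difference that moved with single members and with the processing. The mean over the 4 receptors was -0.6, -0.62 and -0.54 on the 3 arrays, and over the 4 measured antagonists -0.27, -0.16 and -0.27. The difference of receptor minus antagonist was -0.33, -0.46 and -0.27 (mean -0.35 ± 0.09 SD, n = 3). It was larger than its spread over arrays, and no test was made of it. Receptors ranged from -1.33 to 0.32 and antagonists from -0.55 to 0.11, so the measured antagonists lay within the range of the receptors. The upper end of that range is Bmpr1b alone, and without it receptors ranged from -1.33 to -0.44, with Nog inside and Bmper, Grem1 and Chrd above. Without Bmpr2 the mean difference was -0.11, with -0.12, -0.2 and 0 on the arrays, and without Bmpr1b it was -0.66. On the processed signals it turned to 0.28, where Bmpr1b stood at 2.06 and Nog at -1.28. The groups also differed in brightness. Mean log2 intensities were 12.05 for Acvr1, 11.3 for Bmpr1a, 8.55 for Bmpr2 and 6.39 for Bmpr1b. Those of Bmper, Nog, Chrd and Grem1 were 8.94, 6.95, 6.58 and 6.36. An offset draws dim ratios toward 0, so the difference sets ratios on unlike scales side by side. The part of brightness in it was not tested.

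The brightness of a probe bore on these ratios. Before loess, with each array centred on its median, probes under a mean log2 intensity of 7 had medians of 0, -0.01 and 0.02 on the 3 arrays. Probes at 11 and over had medians of 0.53, 0.32 and 0.45. The brightest probes were thus shifted to the null side on all arrays, also on replicate 3 where the dyes were turned. Loess removes this trend (medians from -0.03 to 0.01 over all classes and arrays after it), which lowered the members of middle and high brightness, Acvr1, Bmpr1a, Bmper and Bmpr2, more than the dim ones. Without loess the median over all genes stood at 0.23, and those members at -0.47, -0.04, -0.03 and -1.06. The dim members moved less, with Nog at -0.46, Grem1 at -0.17, Chrd at 0.14 and Bmpr1b at 0.32. The origin of the trend was not tested.

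**Figure D3:**
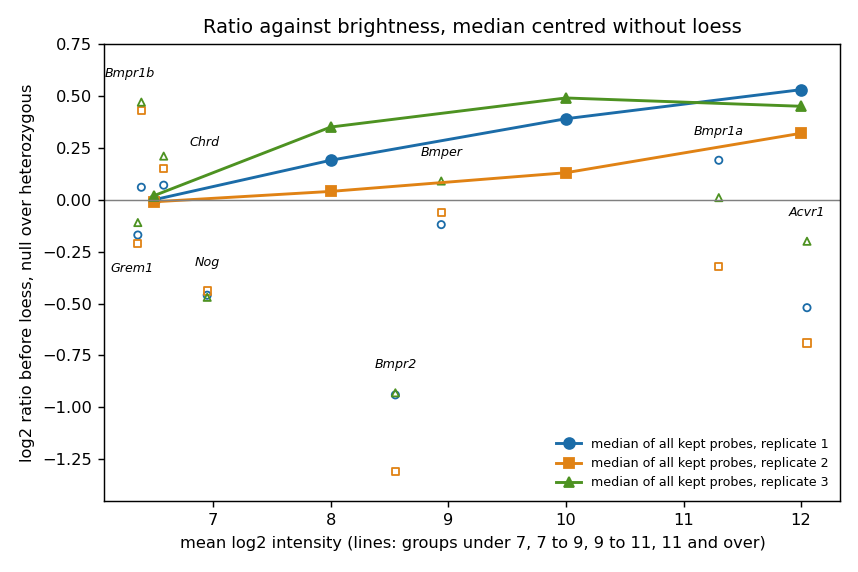
Log2 ratio of null over heterozygous before loess, against mean log2 intensity. Lines join the medians of all kept probes in 4 classes of brightness, by array, and open symbols are the 8 members measured. The lines climb from near 0 to between 0.32 and 0.53 on all 3 arrays. On each array Bmpr2, Acvr1, Bmpr1a, Nog, Bmper and Grem1 lie below the median of their class, and Bmpr1b and Chrd lie above it.

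Across settings the sign of each measured member's mean ratio held, and the call of Bmpr2 held most widely. Some of these means lay near 0. Without loess Bmpr1a stood at -0.04 and Bmper at -0.03, each with arrays of both signs, and Bmpr1b stood at 0.01 in the authors' table. Of the 14 settings that keep replicate 3 turned, the reported one included, Bmpr2 was called in 14, from -1.6 to -1.06. Acvr1 and Nog were called in 13 each, both losing the call by the ordinary t statistic (adjusted p = 0.0539 and 0.057 by that statistic on limma's fit), which shares no spread between probes. Bmpr1a was called in 11 of 14, Bmper in 9 of 14 and Bmpr1b in 9 of the 13 that measured it. Chrd was called in none, with adjusted p from 0.123 to 0.875, and Grem1 in 1. With replicate 3 as labelled, limma called 0 genes, 75 having an unadjusted p under 0.05. The members then stood at -0.42 for Bmpr2, -0.43 for Acvr1, -0.1 for Bmpr1a and for Nog, -0.09 for Bmper, -0.05 for Grem1 and 0.03 for Chrd, each with an adjusted p of 1.

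**Figure D4:**
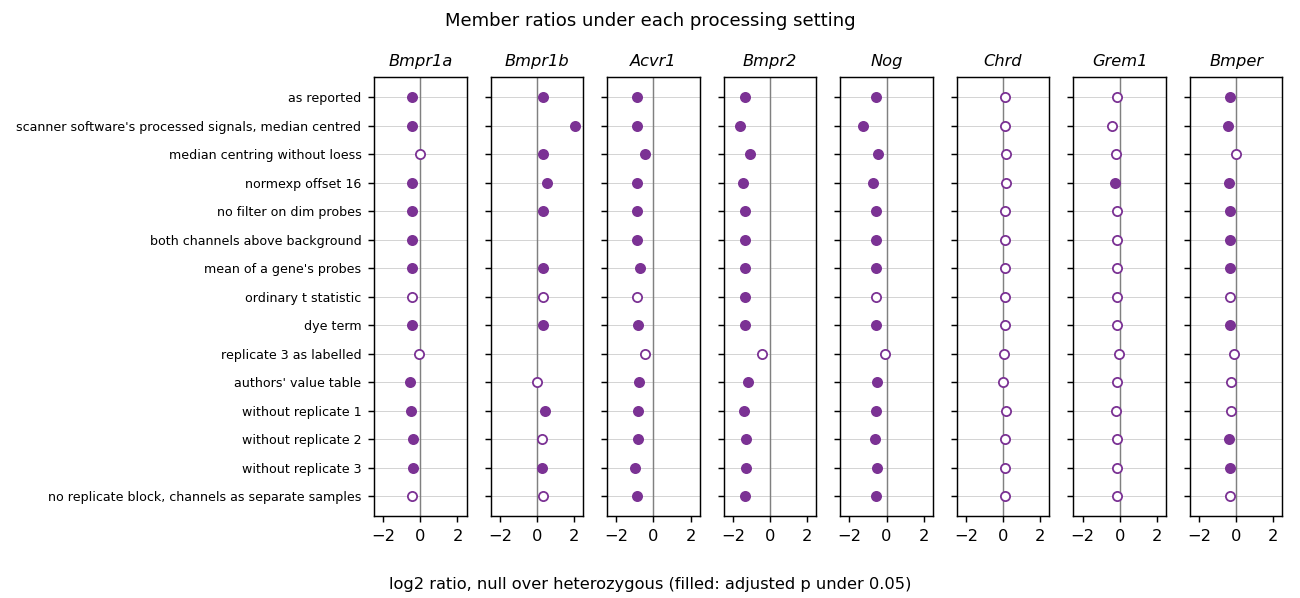
Log2 ratio of each measured member (columns) under each setting (rows), filled where adjusted p was under 0.05. Bmpr2 is filled in every row but that with replicate 3 as labelled, and Bmpr1b spreads from 0.01 to 2.06.

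The other genes of the pathway are given by list, each to be read against the 30.1% of all genes called lower and the 30.2% called higher. Of 13 other receptors and coreceptors of the Tgf-beta family, 10 were measured, and 3 fell, 2 rose and 5 did not pass (median 0), which is near that background. Tgfbr3, or betaglycan, a coreceptor that presents ligands, fell by 1.44 (SE 0.13), and Amhr2, a type II receptor for anti-Müllerian hormone, rose by 0.31 (SE 0.08). The other Bmp type II receptors Acvr2a and Acvr2b stood at -0.09 and 0.02 and did not pass (limma adjusted p = 0.434 and 0.866), beside the fall of Bmpr2. These 2 genes were singled out after their values were seen.

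Of 22 other extracellular modulators 17 were measured, and 6 fell, 3 rose and 8 did not pass (median -0.03), again with no excess of calls over the 60.3% of all genes. Crim1, a membrane protein that binds Bmps, fell by 1.52 (SE 0.10). Cer1, a secreted antagonist of Bmp, Nodal and Wnt ligands, rose by 3.33 (SE 0.16), with 2.77, 3.67 and 3.57 on the arrays. Of its 3 heterozygous channels, 2 were well above background.

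Among 16 Bmp and Gdf ligands, 11 were measured, and 6 fell, 2 rose and 3 did not pass (median -0.3), against the same 30.1% lower and 30.2% higher. Bmp5 fell by 1.1 (SE 0.09), and Gdf3, a ligand of pluripotent cells that also inhibits Bmps, rose by 1.85 (SE 0.11). All 15 Smads and response genes were measured, and 10 fell, 3 rose and 2 did not pass (median -0.53), where 30.1% of all genes fell. Id2, a target of Bmp signals, fell by 2.03 (SE 0.10), and Smad5, a signal-carrying Smad, rose by 0.61 (SE 0.09). The genes of these lists nearest to Bmpr2 over the 3 array ratios were Smad9, Smad6 and Crim1, at root mean square distances of 0.06, 0.13 and 0.23. Nearest to Nog were Id1, Id3 and Fstl1, at 0.12, 0.12 and 0.13.

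**Figure D5:**
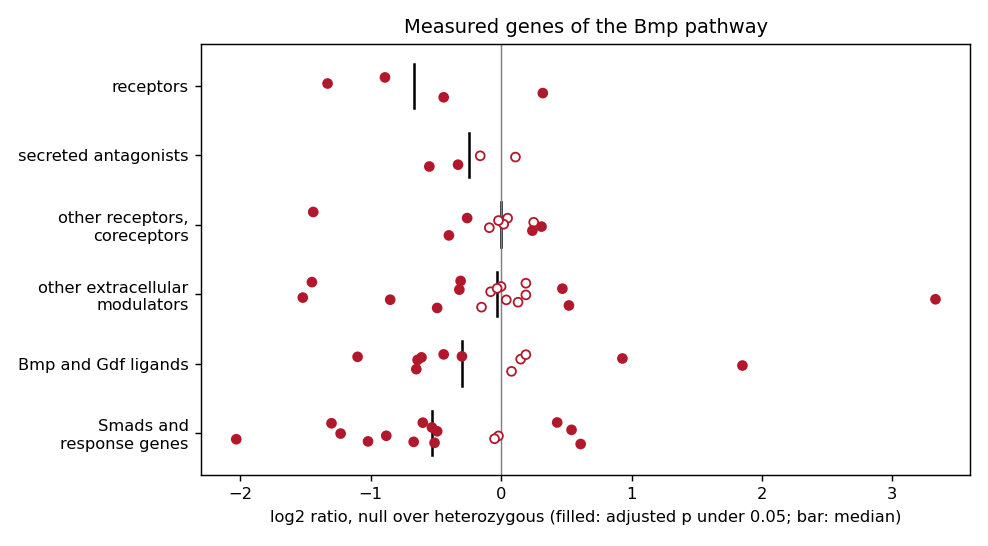
Log2 ratio of null over heterozygous for the measured receptors, secreted antagonists and 4 lists of other pathway genes, filled where adjusted p was under 0.05, with the median as a bar. Medians lie at -0.66 for receptors, -0.24 for antagonists and -0.53 for Smads and response genes, and Cer1 lies alone at 3.33.

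Markers of several cell types moved with the genotype beside these genes. All 12 cardiomyocyte markers fell, with a summed normalized intensity of 7190 to 11600 in null and 192000 to 252000 in heterozygous channels. All 11 visceral endoderm markers fell (17200 to 23300 against 124000 to 151000). Of 10 early mesoderm markers 8 were measured and 8 rose (6260 to 6830 against 1750 to 2160, with 2 not well above background in any heterozygous channel). Of 10 blood markers 10 rose (142000 to 173000 against 35500 to 63100), and of 10 neuroectoderm markers 9 were measured and 9 rose (21500 to 25100 against 4460 to 5330). Fibroblast and feeder markers rose for 6 and fell for 2 of 9 measured (53800 to 77100 against 25900 to 40900). Endothelial markers rose for 8 and fell for 1 of 9, with sums that lay close (12100 to 14500 against 10800 to 11600). Pluripotency markers rose for 8 and fell for 2 of 10 (31700 to 38000 against 19600 to 24500). These counts stand beside 30.1% of all genes called lower and 30.2% called higher. The sums leave out 1 array value of the cardiomyocyte and 2 of the fibroblast and feeder list, which were missing. In such bulk RNA, fewer cells of a type and less RNA per cell cannot be told apart, and the part of cell makeup in the changes of the receptors and antagonists was not tested.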

How the data were processed

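Embryoid bodies of 2 genotypes were measured on 3 2-colour Agilent arrays. The spot and background intensity values were deposited as the scanner software wrote them. Per the file headers that was Agilent Feature Extraction 11.5.1.1, and version 8.5.1.1 stands in the submitters' processing notes. That software's log10 ratio, made by it per the file headers, served only to check the direction of the authors' deposited table, whose values were read as log2 ratios and whose scale, normalization and centring are not stated (column medians -0.101, -0.111 and 0.071).

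Foreground and background medians were corrected by normexp (offset 50) and normalized by loess within arrays with limma 3.58.1 in R 4.3.3. Control and outlier spots had weight 0, and spots of a probe were averaged. Probes well above background in 1 genotype on all 3 arrays were kept, 24575 of 39429. Ratios were tested against 0 with lmFit and eBayes, adjusted by Benjamini-Hochberg, and a gene took its brightest probe. SEs are moderated. Channel levels were scaled by Aquantile. Accessions were matched to RefSeq (GRCm38.p6), naming 28025 probes (71.1%). The array is on mm9 per the file headers. The test was also run on simulated ratios, drawn independently for each probe with the fitted spread. Such ratios cannot check dye or brightness trends or the direction of replicate 3. All 9 members, the gene lists and the rules were chosen with earlier results of these data known. Named beside the members are Hopx, the called gene with the largest rise and fall of each of 4 pathway lists, and the 3 genes nearest the most changed receptor and antagonist. Alternatives varied background, normalization, filter, probe rule, variance, dye, direction, source, replicates and pairing.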

Additional observations from a re-analysis of the deposited data

How the results depend on the processing

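The settings that leave out Bmpr1b or Bmpr2 were chosen after seeing the data. Where no cause is given for a move, the cause was not tested. The receptor minus antagonist difference, -0.35, moved to 0.28 with the processed signals, -0.18 with median centring without loess, -0.66 with both channels above background (which drops Bmpr1b), -0.66 without Bmpr1b and -0.11 without Bmpr2, and was -0.35 without Bambi, which was not measured. Leaving out each replicate in turn gave -0.39 to -0.3. The ordinary t statistic does not change it.

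Lower receptors numbered 2 with median centring, 2 with no replicate block (channels as separate samples), 1 by the ordinary t statistic and 0 with replicate 3 as labelled. Higher receptors numbered 0 with both channels above background, the ordinary t statistic, replicate 3 as labelled, the authors' table and no replicate block, and 0 to 1 without a replicate. Lower antagonists numbered 3 with offset 16, 1 with median centring, the authors' table and no replicate block, 0 by the ordinary t statistic and with replicate 3 as labelled, and 1 to 2 without a replicate. Over all genes 11943 were called, 3996 by the ordinary t statistic and 0 with replicate 3 as labelled. Median centring made 74% of calls higher, against 50% as reported. Dim probes, Bmpr1b, Nog, Chrd, Grem1 and Bambi among them, are limited by signal over background.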
